A study of Mus musculus with 17 samples.

Results

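The genes described here are 5 S100 genes (S100a4, S100a6, S100a10, S100a11 and S100a13) and 5 annexin genes (Anxa1, Anxa2, Anxa3, Anxa4 and Anxa5), taken from a table of 22859 genes by their symbols. The list was chosen with earlier results of these data known. Both families are commonly listed among the genes that set monocytes and recently recruited macrophages apart from long-resident macrophages. S100a8 and S100a9, which are mainly neutrophil transcripts, were left out of the 10. All 10 genes passed the filter on low counts, which kept 15272 genes for testing.

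S100 proteins are small EF-hand proteins that change shape when they bind calcium and then bind a partner. Annexins bind negatively charged phospholipids of the membrane in a calcium-dependent way, and several of them carry an S100 protein: S100A10 forms a complex with annexin A2 that holds plasminogen and its activators at the cell surface, and S100A11 binds annexin A1. Annexin A1 is also a secreted ligand of formyl peptide receptors that limits neutrophil recruitment, and annexin A5 is known for binding phosphatidylserine on dying cells.

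The data were bulk RNA-seq of macrophages sorted from mouse synovium. All mice were labelled Fcgr2b-KO, which removes the inhibitory receptor for IgG. Mice were either controls or had received immune complexes (IC, antibody bound to its antigen) intravenously 8 h before the tissue was taken. 3 subsets were sorted in each state: LYVE1+CX3CR1+ macrophages, which form the lining of the synovium, and MHCII+CD11c- and MHCII+CD11c+ macrophages, which lie below it. There were 3 libraries in 5 of the 6 groups and 2 in the group of MHCII+CD11c+ macrophages after IC. Per the study's methods the mice were adults of both sexes. The labels and the methods do not tie each library to a mouse or pool. A legend of the study names several mice for each plot of the sorted subsets, without saying whether it covers these libraries. The p-values here therefore measure the spread between these libraries, which may be technical. Wild-type libraries were not analysed here.

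Totals ran from 2301913 to 7248939 counts. Fcgr2b itself was counted at 69.2 to 248 CPM (counts divided by the library's TMM-scaled total and expressed per 1e+06) in the libraries labelled as knockouts. Counts summed over a gene do not show whether the deleted exons were transcribed. The sort genes followed the labels: Itgax (CD11c) stood at 275 to 442 CPM in MHCII+CD11c+ libraries against 0 to 15.99 CPM in the others, and H2-Ab1 at 9.74 to 36.7 CPM in LYVE1+CX3CR1+ libraries against at least 2650 CPM in the others. Macrophage markers (Csf1r, Adgre1, Cd68, Fcgr1, Mertk, C1qa, C1qb, C1qc and Mrc1) were all called lower in MHCII+CD11c+ than in both other subsets among controls. This was 9 of 9 against LYVE1+CX3CR1+, with 15.2% of all genes called, and 9 of 9 against MHCII+CD11c-, with 8.66%. Their summed level was 2986 to 4786 CPM in MHCII+CD11c+ controls, against 9951 to 14139 CPM in the other control libraries. Dendritic cell markers ran the other way, with summed levels of 256 to 649 CPM in MHCII+CD11c+ controls, 96.9 to 245 CPM in MHCII+CD11c- controls and 19.4 to 23.8 CPM in LYVE1+CX3CR1+ controls. Of 6 tested, 5 were called higher in MHCII+CD11c+ than in LYVE1+CX3CR1+ controls, and only 1 higher than in MHCII+CD11c- controls. A bulk library cannot tell more cells of one type from more RNA per cell.

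The monocyte part of the name was checked with 10 monocyte markers. Ccr2, a chemokine receptor of monocytes, was called lower in LYVE1+CX3CR1+ macrophages in 4 of 4 comparisons with the MHCII+ subsets. Among controls it stood at 26.3 ± 10.4 CPM in LYVE1+CX3CR1+, 354 ± 128 CPM in MHCII+CD11c- and 860 ± 302 CPM in MHCII+CD11c+ libraries (SD, n = 3 each). Ly6c2, the marker of classical blood monocytes, did not exceed 5.11 CPM in any library. F13a1, the coagulation factor XIII gene, was called lower in MHCII+CD11c+ than in both other subsets, in controls and after IC. Summed over the 10 markers the level was 4452 to 13701 CPM, of which Fn1 (fibronectin) made up 15.1% to 92.5%. These markers therefore did not move as one group, and "monocyte-type" is used for the 10 genes only as a name.

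The 2 control libraries numbered 2 of the MHCII+ subsets stood apart from their groups. In MHCII+CD11c- controls, library 2 was the highest of 3 for 10 of the 10 genes, and its level was over 2 times the mean of the other 2 libraries for 8 of them (median ratio 2.60). Over all tested genes the library was the highest for 36.7% and over 2 times for 13.9%. In MHCII+CD11c+ controls, library 2 was the highest for 8 of the 10 genes and over 2 times for 4 (median ratio 1.65), against 37.9% and 17.4% of all tested genes. The same 2 libraries carried more of Vsig4 and Trem2, which were among the 3 genes whose levels followed Anxa3 most closely. Vsig4, a complement receptor of lining macrophages, was at 28.9, 305 and 22.3 CPM in MHCII+CD11c- control libraries 1, 2 and 3. In MHCII+CD11c+ controls it was at 1.06, 81.0 and 0 CPM, and in LYVE1+CX3CR1+ controls at 1116 to 1206 CPM. Trem2, a lipid-sensing receptor of macrophages, was at 41.9, 160 and 36.7 CPM in MHCII+CD11c- controls and at 16.98, 118 and 11.7 CPM in MHCII+CD11c+ controls. High Vsig4 was not confined to these controls. After IC it was at 540, 144 and 28.3 CPM in MHCII+CD11c- libraries 1, 2 and 3. In MHCII+CD11c+ libraries 1 and 2 after IC it was at 99.7 and 16.6 CPM. These libraries after IC were kept when the 2 controls were left out. Anxa8, another annexin, was at 1.06, 79.0 and 0.666 CPM in MHCII+CD11c- controls and at 11.7, 172 and 6.79 CPM in MHCII+CD11c+ controls. In LYVE1+CX3CR1+ controls it was only at 0, 16.99 and 1.39 CPM, unlike Vsig4. What part the content of such RNA in the 2 control libraries numbered 2 played in the results below was not tested. Each count of the 10 genes called is therefore given with all 17 libraries and again without these 2, which were picked after the levels of the 10 genes had been seen, so the second count is no independent support.

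**Figure D1:**
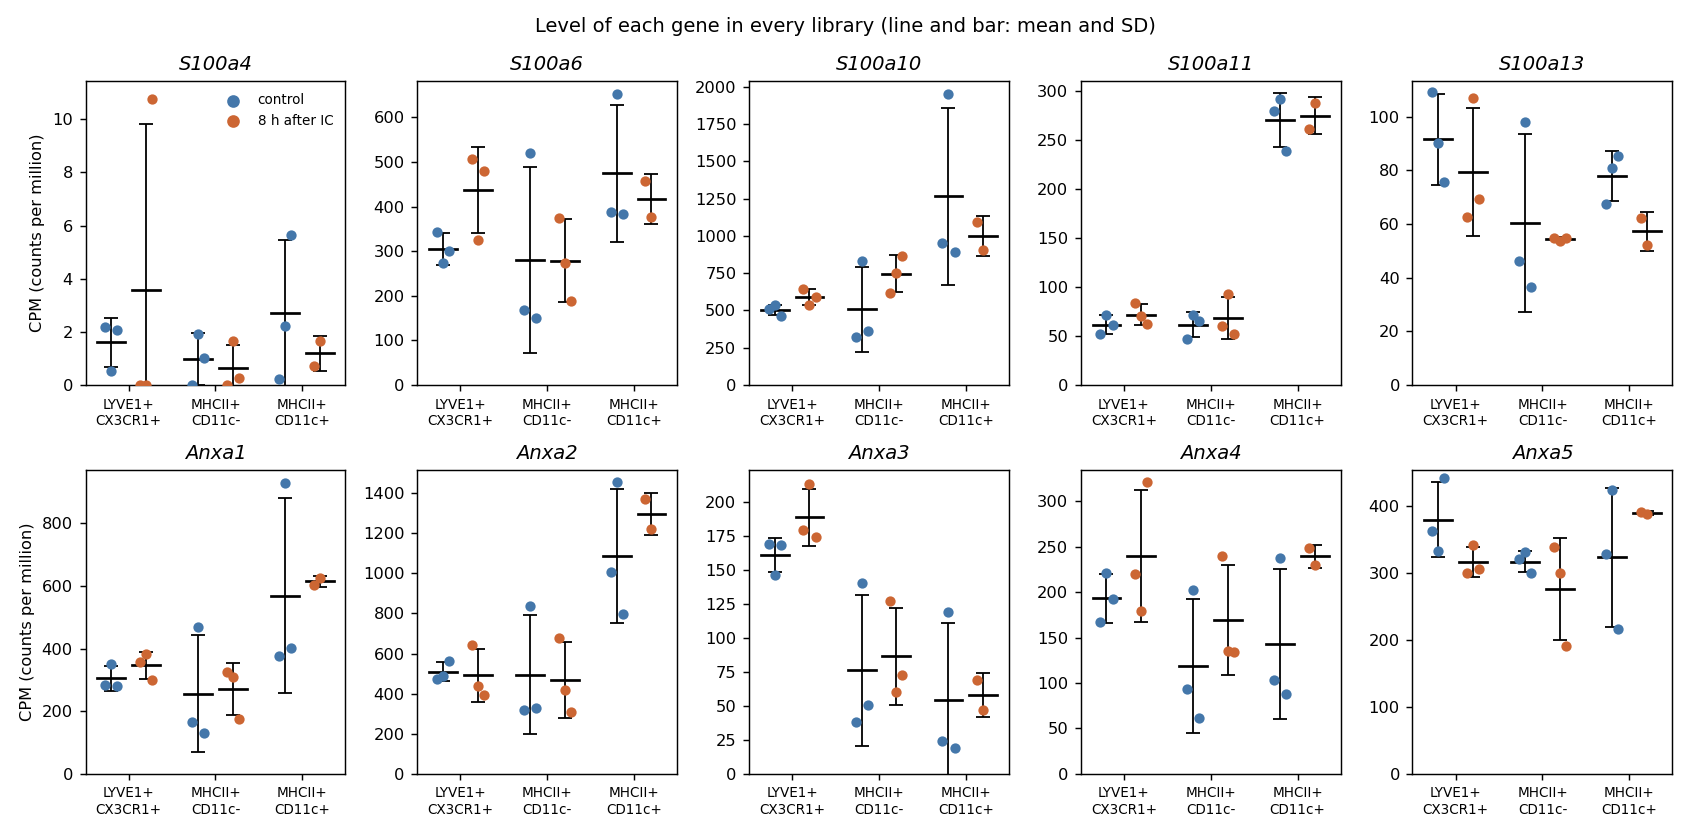
Each panel plots 1 gene, with the level in CPM on a linear axis from 0 and the 3 subsets along the horizontal axis. Points are libraries (blue, control; orange, 8 h after IC), and the lines and bars are group means and SD (n = 3, or 2 for MHCII+CD11c+ after IC). S100a11 is high in all 5 MHCII+CD11c+ libraries (238 to 291 CPM) and low in the other 12 (47.0 to 92.5 CPM), whereas 1 point far above the rest of its group is seen for S100a10, Anxa1, Anxa3 and others among the MHCII+ controls.

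The 5 S100 genes lie on mouse chromosome 3 in 2 clusters (GRCm38, GENCODE M21, all on the plus strand). S100a13 (chr3:90514435-90524581), S100a4 (chr3:90603771-90606045) and S100a6 (chr3:90612882-90624181) form 1 cluster with S100a8 and S100a9. S100a11 (chr3:93520488-93526287) and S100a10 (chr3:93555080-93564643) form the other, 2.82 Mb further along and 28.8 kb from each other. The annexin genes are dispersed: Anxa1 at chr19:20373428-20390944 (minus strand), Anxa2 at chr9:69453620-69491795 (plus), Anxa3 at chr5:96793339-96845966 (plus), Anxa4 at chr6:86736840-86793584 (minus) and Anxa5 at chr3:36448923-36475894 (minus). Counts cover the exons of each gene, of which S100a4 shares 302 of 584 bases with the protein-coding gene Gm42674 on the same strand. Anxa2 shares 98 of 3731 exon bases, Anxa3 112 of 3643 and Anxa4 75 of 4645 with non-coding transcripts.

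Compared per kilobase of the principal transcript, S100a10 had the highest level of the 10 genes in every group. Its mean was 735 ± 51.6 CPM per kb in LYVE1+CX3CR1+ controls, 740 ± 415 in MHCII+CD11c- controls and 1846 ± 870 in MHCII+CD11c+ controls (SD, n = 3 each). S100a6 and Anxa2 followed, in that order in LYVE1+CX3CR1+ and MHCII+CD11c- controls and in the reverse order in MHCII+CD11c+ controls, where their means of 649 ± 211 and 751 ± 232 CPM per kb lay within 1 SD of each other. S100a11 was the seventh in LYVE1+CX3CR1+ controls (120 ± 19.3 CPM per kb) and the fourth in MHCII+CD11c+ controls (528 ± 54.0). S100a4 was the lowest in every group, at 1.28 to 7.21 CPM per kb. With all annotated exons as the length, S100a10 also led and S100a4 was also last, while S100a11 took the second place in MHCII+CD11c+ controls. Together the 10 genes took 0.254% ± 0.00105 of the counts in LYVE1+CX3CR1+ controls, 0.219% ± 0.107 in MHCII+CD11c- controls and 0.423% ± 0.147 in MHCII+CD11c+ controls (SD, n = 3 each).

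S100a11 showed the clearest difference of the 10 between subsets. It was at 279, 291 and 238 CPM in MHCII+CD11c+ control libraries 1, 2 and 3, at 47.0, 71.4 and 65.3 CPM in MHCII+CD11c- controls and at 51.7, 71.4 and 61.4 CPM in LYVE1+CX3CR1+ controls. After IC it was at 261 and 288 CPM in MHCII+CD11c+, at 60.4, 92.5 and 51.9 CPM in MHCII+CD11c- and at 83.3, 70.1 and 62.1 CPM in LYVE1+CX3CR1+ libraries. Every MHCII+CD11c+ library was above every library of the other subsets, and the other 2 subsets overlapped. S100a11 was 4.40 times as high in MHCII+CD11c+ as in MHCII+CD11c- controls (95% interval 3.23 to 5.999), a log2 difference of 2.14 ± 0.22 (SE, adjusted p = 1.30e-06). For LYVE1+CX3CR1+ against MHCII+CD11c+ controls the log2 difference was -2.13 ± 0.22 (adjusted p = 3.10e-07). After IC the differences were 2.00 ± 0.24 (adjusted p = 1.91e-05) and -1.93 ± 0.24 (adjusted p = 6.28e-06). All 4 calls held in each of the 27 alternative analyses, including the loss of any 1 library, with adjusted p values of at most 0.00127. LYVE1+CX3CR1+ and MHCII+CD11c- controls differed by 0.00 ± 0.22 on the log2 scale (95% interval -0.45 to 0.45). Beside this pattern stand the higher dendritic cell markers and lower macrophage markers of the MHCII+CD11c+ controls given above. After IC, 3 of 9 macrophage markers were called lower than in LYVE1+CX3CR1+ and 4 of 9 lower than in MHCII+CD11c- libraries. Of 6 dendritic cell markers, 5 and 4 were called higher there, with 11.9% and 4.03% of all genes called. What part these markers' cells played was not tested.

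S100a10 was also higher in MHCII+CD11c+ controls, with more spread. It was at 952, 1952 and 889 CPM in MHCII+CD11c+ controls, at 323, 834 and 363 CPM in MHCII+CD11c- controls and at 511, 534 and 465 CPM in LYVE1+CX3CR1+ controls. The MHCII+CD11c+ libraries lay above all others, with MHCII+CD11c- library 2 close below the lowest of them. The log2 difference of MHCII+CD11c+ against MHCII+CD11c- controls was 1.32 ± 0.33 (adjusted p = 0.0221), and that of LYVE1+CX3CR1+ against MHCII+CD11c+ controls was -1.33 ± 0.33 (adjusted p = 0.0128). The first call was lost without MHCII+CD11c- control library 1 (adjusted p = 0.0834), without library 3 of that group (0.0827) or without MHCII+CD11c+ control library 2 (0.0625). It was also lost without the filter on low counts (0.0664) and with a fit on only these 6 libraries (0.192). The second call was lost without LYVE1+CX3CR1+ control library 3 (0.0632). After IC the gene was at 1095 and 903 CPM in MHCII+CD11c+, at 619, 749 and 868 CPM in MHCII+CD11c- and at 646, 535 and 593 CPM in LYVE1+CX3CR1+ libraries. The order of the group means was the same, and neither difference passed the test (0.42 ± 0.37, adjusted p = 0.749, and -0.76 ± 0.37, adjusted p = 0.207).

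Anxa2, the partner of S100a10, was at 1006, 1455 and 799 CPM in MHCII+CD11c+ controls, at 320, 837 and 327 CPM in MHCII+CD11c- controls and at 475, 488 and 564 CPM in LYVE1+CX3CR1+ controls. After IC it was at 1371 and 1221 CPM, at 676, 417 and 309 CPM and at 642, 439 and 391 CPM in the same subsets. MHCII+CD11c+ libraries were the highest in both states, apart from MHCII+CD11c- control library 2, which exceeded the lowest of them. Only 1 of the 4 differences that involve MHCII+CD11c+ macrophages passed the test: LYVE1+CX3CR1+ against MHCII+CD11c+ after IC, at -1.40 ± 0.42 (adjusted p = 0.0421). That call was lost without the filter on low counts (adjusted p = 0.105), with 4 surrogate variables (0.131), with a replicate block (0.0563) and without any of 9 single libraries: 1, 2 or 3 of LYVE1+CX3CR1+ controls, 1 of MHCII+CD11c+ controls, 2 or 3 of LYVE1+CX3CR1+ after IC, 2 of MHCII+CD11c- after IC, and 1 or 2 of MHCII+CD11c+ after IC, with adjusted p values from 0.0540 to 0.168. The other 3 differences were of like size, at -1.09 ± 0.37 (adjusted p = 0.0701) and 1.13 ± 0.37 (0.0876) in controls and 1.47 ± 0.42 (0.0689) for MHCII+CD11c+ against MHCII+CD11c- after IC. The log2 ratio of S100a10 to Anxa2 CPM was between -0.280 and 0.601 in all groups but MHCII+CD11c- after IC, where it ran from -0.127 to 1.49, and MHCII+CD11c+ after IC, where it was -0.436 and -0.324.

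S100a11 and Anxa2, the genes called between subsets after IC, had the following bases upstream of their annotated starts in RefSeq's promoter table (GRCm38.p6, plus strand, S100a11 at chr3:93520246-93520487 and Anxa2 at chr9:69453433-69453619). Each stretch stops at the start of the gene in GENCODE. The last 8 (S100a11) and 63 (Anxa2) bases before the RefSeq start are therefore not shown. The 2 genes are shown because theirs were the only 2 of 9 upstream windows of the 10 genes to hold an AP-1 site. Capitals mark AP-1 sites, spelled TGANTCA (which reads the same on both strands), and GC boxes, spelled GGGCGG and found here on the strand shown.
S100a11: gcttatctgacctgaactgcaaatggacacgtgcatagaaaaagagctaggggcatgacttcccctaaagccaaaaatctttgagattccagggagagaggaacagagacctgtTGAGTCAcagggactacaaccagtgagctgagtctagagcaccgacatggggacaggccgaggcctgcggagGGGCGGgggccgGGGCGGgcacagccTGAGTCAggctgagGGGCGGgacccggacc
Anxa2: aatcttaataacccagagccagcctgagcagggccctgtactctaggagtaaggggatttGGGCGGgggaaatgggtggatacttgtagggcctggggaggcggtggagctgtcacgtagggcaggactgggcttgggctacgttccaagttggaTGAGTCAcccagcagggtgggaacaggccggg

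AP-1 is the FOS and JUN family of transcription factors, and GC boxes bind SP1. Windows were the 250 bases before the RefSeq start, searched on both strands. 8 of the 10 genes had an entry (Anxa4 had 2), and S100a10 and Anxa3 had none. S100a11 held 2 AP-1 sites and 3 GC boxes, and Anxa2 held 1 and 3, of which 1 AP-1 site and 1 GC box lie in the stretch shown for Anxa2. Of all 32851 windows in the table, 6.7% held an AP-1 site and 32.7% a GC box. A TATA box, spelled TATAAA, was in 3 of the 9 windows (S100a4, Anxa1 and Anxa2; 12.4% of all), a core of the PU.1 type, spelled GAGGAA, in 2 (S100a11 and Anxa1; 23.3% of all) and a glucocorticoid response element in 0 (0.4% of all). A match describes letters in these windows and is not a measured binding site.

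Anxa1 was at 375, 928 and 403 CPM in MHCII+CD11c+ controls, at 166, 470 and 132 CPM in MHCII+CD11c- controls and at 283, 350 and 281 CPM in LYVE1+CX3CR1+ controls. After IC it was at 602 and 627 CPM in MHCII+CD11c+, at 324, 310 and 175 CPM in MHCII+CD11c- and at 358, 383 and 299 CPM in LYVE1+CX3CR1+ libraries. MHCII+CD11c+ libraries were above all LYVE1+CX3CR1+ libraries in both states, and above all MHCII+CD11c- libraries after IC. None of these differences passed the test: MHCII+CD11c+ against MHCII+CD11c- gave 1.15 ± 0.45 in controls (adjusted p = 0.163) and 1.19 ± 0.51 after IC (adjusted p = 0.291).

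Anxa3, an annexin abundant in neutrophils, had its highest group means in LYVE1+CX3CR1+ and its lowest in MHCII+CD11c+ macrophages, in both states. It was at 169, 146 and 168 CPM in LYVE1+CX3CR1+ controls, at 38.1, 140 and 50.3 CPM in MHCII+CD11c- controls and at 24.0, 119 and 19.2 CPM in MHCII+CD11c+ controls. After IC it was at 179, 213 and 174 CPM, at 127, 60.0 and 72.2 CPM and at 69.2 and 46.6 CPM. Each LYVE1+CX3CR1+ library was above each MHCII+ library of the same state, with the MHCII+CD11c- control library 2 close below the lowest. The log2 differences were 1.07 ± 0.64 and 1.13 ± 0.64 against MHCII+CD11c- and 1.55 ± 0.64 and 1.70 ± 0.72 against MHCII+CD11c+, in controls and after IC, and did not pass the test (adjusted p from 0.152 to 0.702). Without the 2 MHCII+ control libraries numbered 2 they were 1.87 (adjusted p = 0.000235), 1.13 (0.00390), 2.89 (1.67e-07) and 1.70 (0.000127), and all were called. Anxa3 was one of the genes in which those libraries stood out most, at 3.17 and 5.51 times the mean of the other 2 libraries of their group. Neutrophil markers did not share its order: their summed level was 37.7 to 91.3 CPM in LYVE1+CX3CR1+ controls and 112 to 632 CPM in MHCII+ controls.

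S100a6, which binds the calcyclin-binding protein Cacybp, was at 344, 273 and 300 CPM in LYVE1+CX3CR1+ controls, at 169, 521 and 151 CPM in MHCII+CD11c- controls and at 387, 652 and 383 CPM in MHCII+CD11c+ controls. After IC its range was 188 to 506 CPM. The differences between subsets ran from -0.63 to 0.76 on the log2 scale, and none passed the test. Anxa4, an annexin of secretory epithelia, was at 167 to 221 CPM in LYVE1+CX3CR1+ controls, at 93.4, 202 and 61.3 CPM in MHCII+CD11c- controls and at 103, 238 and 88.3 CPM in MHCII+CD11c+ controls, and its differences between subsets were 0.00 to 0.69 in size without a call. The subset ranges overlapped in 4 of 6 comparisons for S100a6 and in 6 of 6 for Anxa4, and library 2 of MHCII+CD11c- controls was in the range of LYVE1+CX3CR1+ controls or above it.

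Anxa5 had the most even group means of the 9 genes other than S100a4. They ran from 276 ± 76.4 CPM (MHCII+CD11c- after IC, SD, n = 3) to 389 ± 2.90 CPM (MHCII+CD11c+ after IC, n = 2), and no difference passed the test. The widest between subsets was 0.49 ± 0.24 for MHCII+CD11c+ against MHCII+CD11c- after IC (95% interval 0.01 to 0.98, adjusted p = 0.339). S100a13, which takes part in release of FGF1 from cells, had group means of 54.5 ± 0.544 to 91.6 ± 16.9 CPM. It was highest in LYVE1+CX3CR1+ macrophages in both states without passing the test (0.59 ± 0.28 against MHCII+CD11c- controls, adjusted p = 0.480). S100a1, on the opposite strand, lies 42 bases from S100a13 in GENCODE, and in RefSeq the 2 genes share 98 bases. Their log2 CPM correlated with r = 0.846 over the 17 libraries (0.810 within groups), and the strand setting of the counting is not given in the sources used here, so reads of the shared stretch cannot be told apart.

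S100a4, an S100 protein of motile cells, was close to absent from these counts. It had 122 reads over all libraries and 0 to 26 in any one of them. 8 libraries held 3 or fewer and 4 held none. Its highest level was 10.8 CPM, in LYVE1+CX3CR1+ library 3 after IC, in a group whose other 2 libraries had 0 reads. No order of the groups can be read at this depth. How reads from the exon bases shared with Gm42674 were counted is not stated.

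Between subsets 0 to 2 of the 10 genes were called in each comparison, and each count is set beside the share of all tested genes called. In controls 0 of 10 differed between LYVE1+CX3CR1+ and MHCII+CD11c- (edgeR), where 1.56% of all genes were called, and 1 gene, S100a13, had an unadjusted p under 0.05. Between LYVE1+CX3CR1+ and MHCII+CD11c+ controls 2 of 10 were called, both lower in LYVE1+CX3CR1+, with 15.2% of all genes called. Between MHCII+CD11c+ and MHCII+CD11c- controls 2 of 10 were called, both higher in MHCII+CD11c+, with 8.66% of all genes. After IC the counts were 0 of 10 for LYVE1+CX3CR1+ against MHCII+CD11c- (5.54% of all genes, and 0 of 10 at an unadjusted p under 0.05), 2 of 10 for LYVE1+CX3CR1+ against MHCII+CD11c+ (11.9%) and 1 of 10 for MHCII+CD11c+ against MHCII+CD11c- (4.03%). Both counts of 0 were also 0 with DESeq2 and with voom. Counts of 1 or 2 in 10 are near these background shares and are no result about the list as a whole. Median log2 differences over the 10 genes were -0.66 and 0.94 for MHCII+CD11c+ controls against the other 2 subsets (in the order LYVE1+CX3CR1+ minus MHCII+CD11c+, MHCII+CD11c+ minus MHCII+CD11c-), against 0.05 and -0.03 over all genes.

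**Figure D2:**
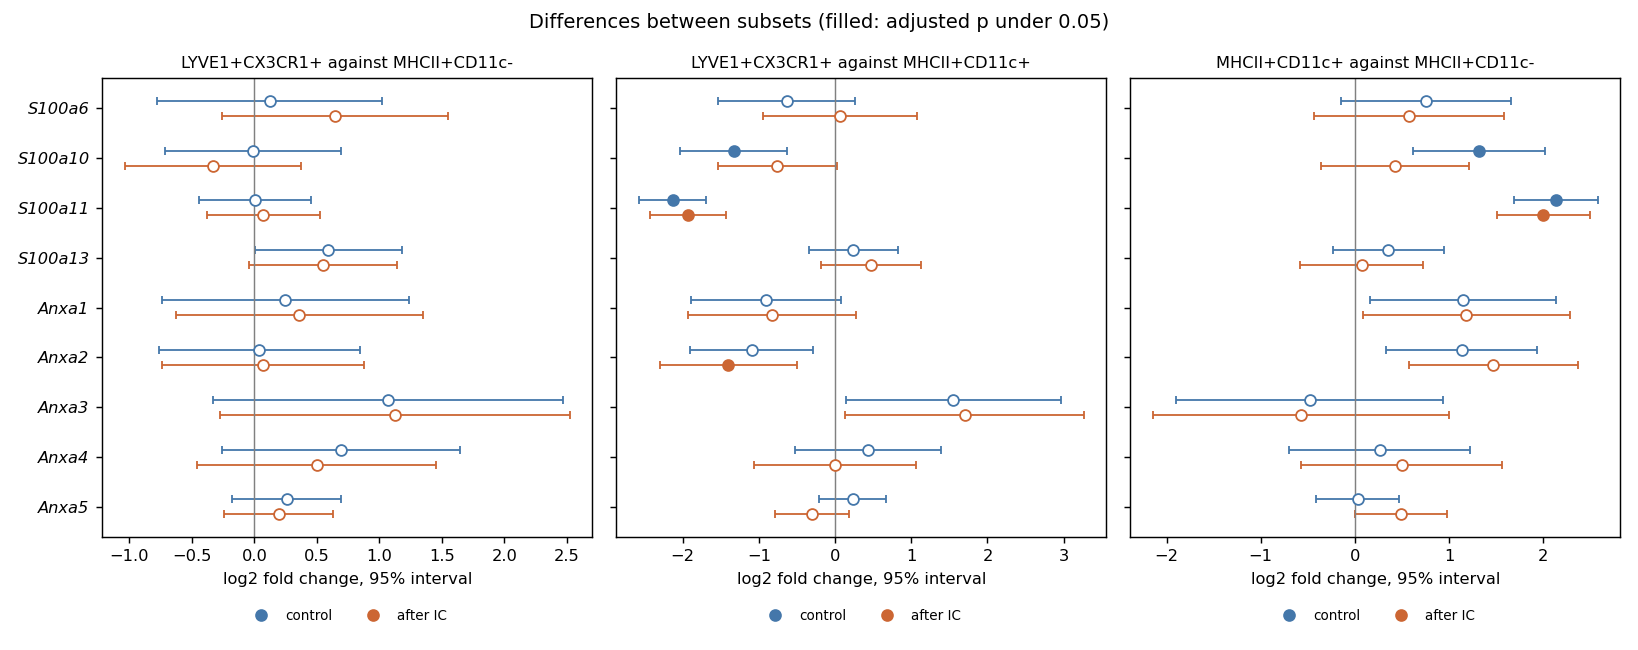
Each panel shows 1 pair of subsets, with the log2 fold change and its 95% interval from edgeR on the horizontal axis for 9 genes (S100a4 is left out for its low counts). Blue is control, orange after IC, and filled points have an adjusted p under 0.05. S100a11 lies farthest from 0 in both panels with MHCII+CD11c+ macrophages, Anxa3 has the widest intervals, and in the panel of LYVE1+CX3CR1+ against MHCII+CD11c- no point is filled.

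Without the 2 MHCII+ control libraries numbered 2, the control counts became 5 of 10 for LYVE1+CX3CR1+ against MHCII+CD11c- (4.12% of all genes called), 5 of 10 for LYVE1+CX3CR1+ against MHCII+CD11c+ (16.6%) and 6 of 10 for MHCII+CD11c+ against MHCII+CD11c- (9.77%). S100a6, S100a13, Anxa1, Anxa3 and Anxa4 were then called higher in LYVE1+CX3CR1+ macrophages in the first of these, at log2 differences of 0.93 to 1.87. In the second, S100a10, S100a11 and Anxa2 were called lower and Anxa3 and Anxa4 higher in LYVE1+CX3CR1+ macrophages. Against MHCII+CD11c- controls, S100a6, S100a10, S100a11, Anxa1 and Anxa2 were called higher in MHCII+CD11c+ and Anxa3 lower (-1.02, adjusted p = 0.0389). The counts after IC became 1 (Anxa3), 5 (S100a10, S100a11, Anxa1, Anxa2 and Anxa3) and 3 (S100a11, Anxa1 and Anxa2) of 10, with 6.87%, 13.4% and 5.61% of all genes called. No library of those groups was removed, and their counts moved because the spread is estimated over all groups. Since the 2 libraries were picked with the levels of the 10 genes seen, none of these added calls is independent support. Leaving out MHCII+CD11c- control library 2 alone gave 1, 4 and 6 of 10 in the control comparisons, in the same order, with 2.66%, 15.5% and 9.45% of all genes called.

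**Figure D3:**
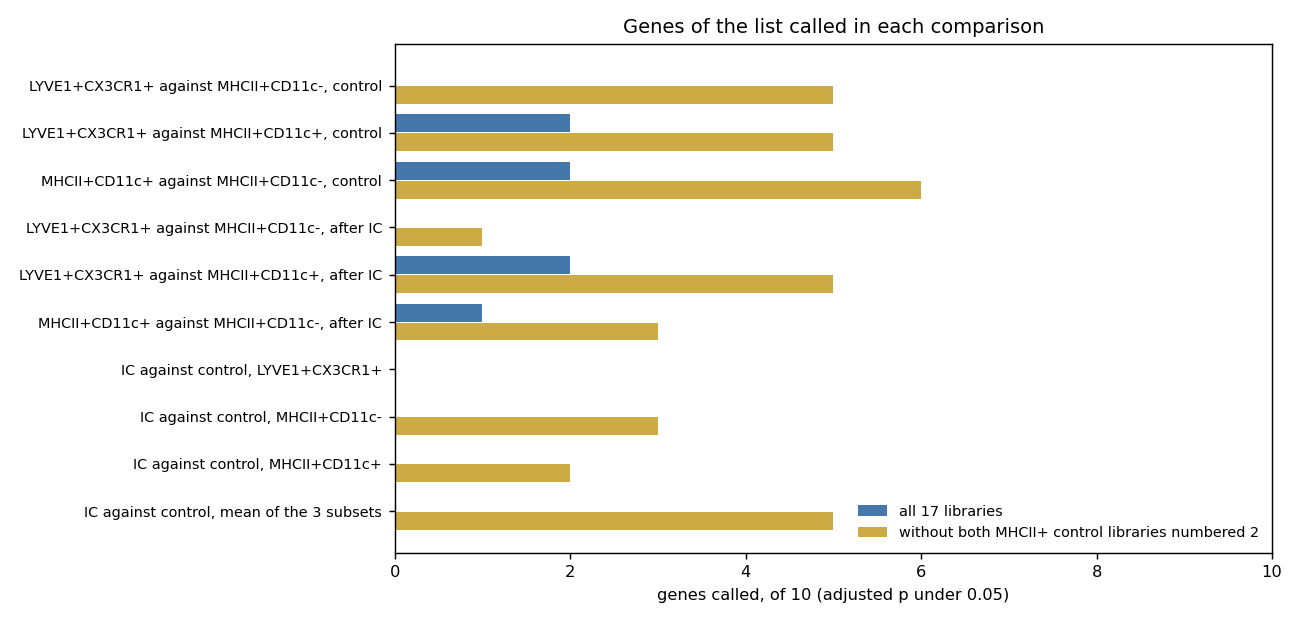
Bars give the number of the 10 genes called (adjusted p under 0.05) in each of 10 comparisons, on an axis from 0 to 10, with all 17 libraries (blue) and without both MHCII+ control libraries numbered 2 (yellow). The count was at most 2 with all libraries and up to 6 without them, and it stayed at 0 in both for the IC response of LYVE1+CX3CR1+ macrophages.

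None of the 10 genes passed the test for a response to IC with all libraries. In LYVE1+CX3CR1+ macrophages 0 of 10 were called (0.963% of all genes), in MHCII+CD11c- 0 of 10 (0.701%), in MHCII+CD11c+ 0 of 10 (0.216%), and for the mean of the 3 subsets 0 of 10 (3.35%). At an unadjusted p under 0.05 the counts from edgeR were also 0, and DESeq2 and voom called 0 of 10 in each. Anxa4 had the largest mean response among the 9 genes above the floor, from 152 ± 65.7 CPM (n = 9) in controls to 214 ± 62.5 CPM (n = 8) after IC, a log2 difference of 0.52 ± 0.27 (95% interval -0.06 to 1.09, adjusted p = 0.340). S100a11 differed by 0.14 ± 0.13 (95% interval -0.13 to 0.41) and Anxa5 by -0.07 ± 0.13 (-0.33 to 0.20), the narrowest intervals of the list. The interval was wider for Anxa1 (-0.47 to 0.72), Anxa2 (-0.45 to 0.52), Anxa3 (-0.68 to 1.01) and S100a6 (-0.44 to 0.65), and changes inside these bounds were not detectable here. In LYVE1+CX3CR1+ macrophages S100a10 was at 535 to 646 CPM after IC against 465 to 534 CPM in controls, ranges that nearly touch. Anxa3 was at 174 to 213 CPM against 146 to 169 CPM there. Their log2 differences of 0.23 ± 0.33 and 0.23 ± 0.64 did not pass the test. S100a13 went the other way in MHCII+CD11c+ macrophages, at 52.1 and 62.3 CPM after IC against 67.3 to 85.3 CPM in controls, also without a call.

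**Figure D4:**
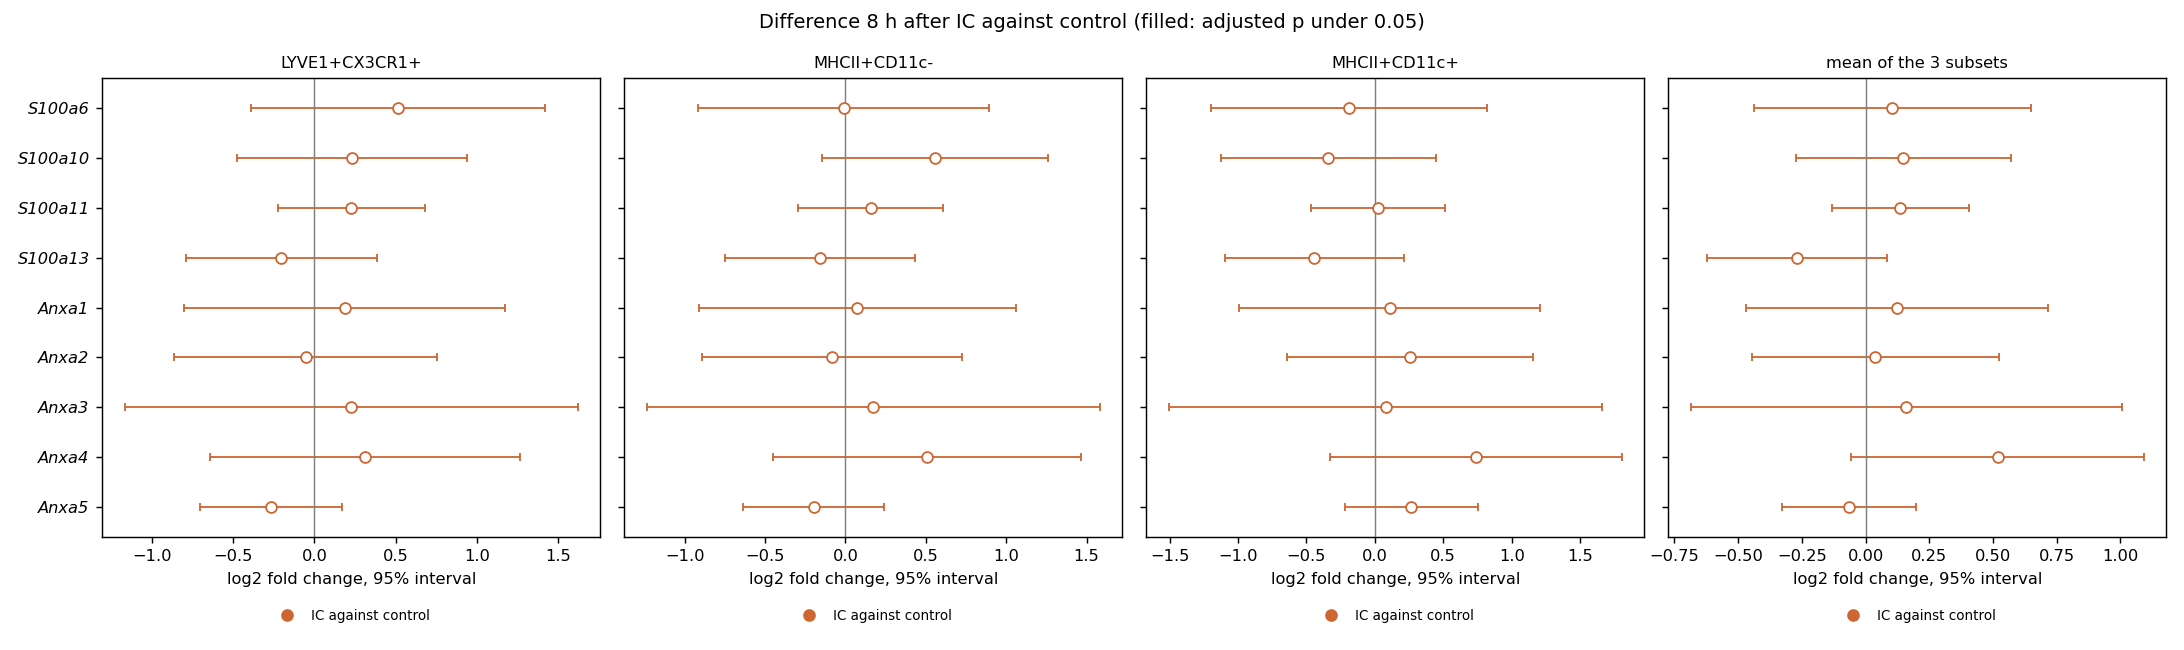
Log2 fold changes 8 h after IC against control with 95% intervals are shown for 9 genes in each subset and for the mean of the 3 subsets (S100a4 is left out for its low counts). Open points have an adjusted p of at least 0.05; no point is filled, and every interval covers 0.

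The response counts depended on the same 2 libraries. Without them, 3 of 10 genes were called higher after IC in MHCII+CD11c- macrophages (S100a10 at 1.12, adjusted p = 0.000783, Anxa1 at 0.86, 0.0393, and Anxa4 at 1.13, 0.0296), where 1.75% of all genes were called. In MHCII+CD11c+ macrophages 2 of 10 were called (Anxa3 at 1.41, adjusted p = 0.0187, and Anxa4 at 1.32, 0.0191), with 1.01% of all genes, and for the mean of the subsets 5 of 10 (S100a6, S100a10, Anxa1, Anxa3 and Anxa4, at 0.47 to 0.92), with 5.76%. In LYVE1+CX3CR1+ macrophages, which lost no library, the count stayed at 0, with 1.33% of all genes called. Since the removed libraries were the control libraries with the highest levels of most of these genes, their removal lowers the control means by construction. With only MHCII+CD11c- control library 2 left out, S100a10 was the 1 gene called in MHCII+CD11c- macrophages, with 1.13% of all genes.

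Differences between the responses of the subsets were tested as interactions. None of the 10 genes was called for LYVE1+CX3CR1+ minus MHCII+CD11c- (0.0262% of all genes), for LYVE1+CX3CR1+ minus MHCII+CD11c+ (0.0327%) or for MHCII+CD11c+ minus MHCII+CD11c- (0%, 0 of 15272 genes, of which 496 had an unadjusted p under 0.05 in edgeR, with 2 called by DESeq2 and 0 by voom). None of the 10 had an unadjusted p under 0.05 in any of the 3 tests with edgeR, and DESeq2 and voom called none. Without the 2 MHCII+ control libraries numbered 2 the counts were also 0 of 10, with 0.0327%, 0.642% and 0.144% of all genes called. The widest difference among the genes above the floor was that of S100a10 between MHCII+CD11c+ and MHCII+CD11c- macrophages, at -0.90 ± 0.49 (95% interval -1.95 to 0.16).

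Levels of several of the genes moved together across libraries. Over the 17 libraries, log2 CPM of Anxa1 and Anxa2 had r = 0.894 (0.847 after subtracting group means), S100a6 and Anxa1 r = 0.859 (0.853), and S100a6 and Anxa2 r = 0.754 (0.898). S100a10 and Anxa2, whose proteins form a complex, had r = 0.775 (0.632). S100a11 and Anxa2 had r = 0.856 over all libraries but 0.458 within groups, and S100a11 and Anxa3 had the lowest value of the 45 pairs, at -0.510 (0.211 within groups). Anxa3 and S100a10 went from r = -0.147 over all libraries to 0.804 within groups, and Anxa3 and Anxa2 from -0.159 to 0.775. These values describe libraries that share subsets, depth and the 2 libraries numbered 2 described above.

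**Figure D5:**
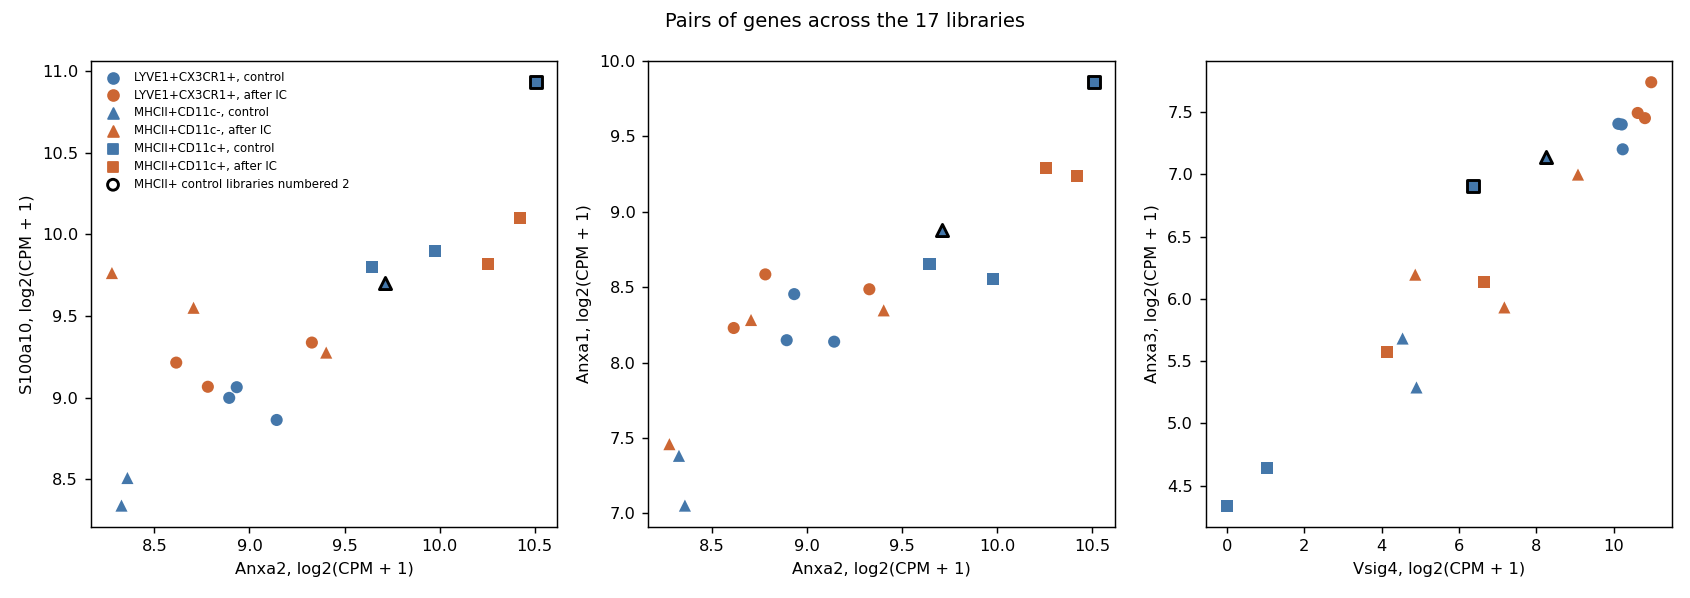
Each point is 1 of the 17 libraries on log2(CPM + 1) axes (circles LYVE1+CX3CR1+, triangles MHCII+CD11c-, squares MHCII+CD11c+; blue control, orange after IC), and black outlines mark the 2 MHCII+ control libraries numbered 2. S100a10 and Anxa1 rise with Anxa2, and in the right panel the outlined libraries lie above the other controls of their subsets in both Vsig4 and Anxa3.

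The genes whose log2 CPM followed each of the 10 most closely over the 17 libraries differed between them. For S100a11 they were Cd200r3 (r = 0.964), Nectin1 (0.953) and Nap1l2 (0.952), of which Nectin1, a cell adhesion molecule, was at 104 CPM in MHCII+CD11c+ and 22.8 CPM in MHCII+CD11c- controls on average, while Cd200r3 and Nap1l2 stayed under 10 CPM in every group. For Anxa3 they were Trem2 (0.966), Pls3 (0.959) and Vsig4 (0.959). Rgs1, which shortens signals of chemokine receptors, was close to both Anxa1 (0.939) and S100a6 (0.916). Anxa1 was also followed by Rgcc (0.927) and the intermediate filament gene Vim (0.917), and S100a6 by Slc16a3 (0.917) and Fn1 (0.917). For Anxa2 they were Depdc1a (0.936), Crip1 (0.923) and the hyaluronan receptor gene Cd44 (0.921), and for Anxa4 Pdpn (0.956), Itgb2 (0.908) and Lmna (0.900). The closest genes for S100a10 were Mrpl32 (0.899), Areg (0.898) and Sec11c (0.896), for S100a13 Phldb1 (0.865), S100a1 (0.846) and Lilrb4b (0.843), and for Anxa5 Smurf1 (0.860), Pdhb (0.855) and Apool (0.848). Depdc1a and Apool were low, with group means of at most 5.24 and 8.97 CPM. Those of S100a4 (Epc1, 0.814, Gm48766, 0.799, and 9330162G02Rik, 0.790) rest on its few reads.

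Other members of both families and known partners were counted from lists. Of 7 other S100 genes in the table, 3 passed the filter on low counts (S100a1, S100a16 and S100b), and 0 of these were called in any of the 13 comparisons with edgeR. The share of all genes called in those comparisons was 0% to 15.2%. S100a1 and S100a16 had unadjusted p values under 0.05 in 2 comparisons and 1 comparison, and the lowest adjusted p was 0.115. S100b, a glial and dendritic S100 gene, was at 49.95, 36.4 and 47.9 CPM in LYVE1+CX3CR1+ controls, at 0.638, 56.1 and 0.9996 CPM in MHCII+CD11c- controls and at 2.55, 23.9 and 0 CPM in MHCII+CD11c+ controls. The MHCII+ control libraries numbered 2 stood out here as well. After IC, S100b was at 32.8, 6.78 and 2.47 CPM in MHCII+CD11c- libraries 1, 2 and 3.

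Of 5 other annexins in the table, 1 was called in 1 comparison. Anxa6, which links membranes to the actin cytoskeleton, was at 271, 248 and 315 CPM in LYVE1+CX3CR1+ and 188, 226 and 156 CPM in MHCII+CD11c+ controls. The groups did not overlap, with a log2 difference of 0.55 ± 0.18 (adjusted p = 0.0450). The call held in 8 of 17 analyses that left out 1 library (adjusted p up to 0.207) and was lost with RLE size factors (0.0692). It was lost without LYVE1+CX3CR1+ control libraries 1 or 3, MHCII+CD11c+ control libraries 1 or 3, MHCII+CD11c- control libraries 1 or 3, MHCII+CD11c- library 3 after IC, or either MHCII+CD11c+ library after IC.

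Of 6 partners and receptors, 5 passed the filter and 2 were called, each in 1 of the 13 comparisons. All genes were called at 5.54% in the comparison of Fpr2 and at 3.35% in that of Ahnak. These 2 calls are no result about the list as a whole. Fpr2, a formyl peptide receptor that binds annexin A1, was at 0, 0 and 0.829 CPM in LYVE1+CX3CR1+ macrophages after IC and at 6.20, 12.5 and 9.34 CPM in MHCII+CD11c- macrophages after IC (adjusted p = 0.0382). All 3 LYVE1+CX3CR1+ libraries had 3 or fewer reads of it, and it shares 48 of 1296 exon bases with Fpr3. The call held in 9 of 17 analyses that left out 1 library (adjusted p up to 0.120). It was lost without LYVE1+CX3CR1+ control library 1, MHCII+CD11c- control library 1, LYVE1+CX3CR1+ libraries 1 or 2, MHCII+CD11c- libraries 2 or 3, or either MHCII+CD11c+ library after IC. Ahnak, a large scaffold that binds the S100A10 and annexin A2 complex, was at 9093 ± 995 CPM (SD, n = 9) in controls and 7018 ± 868 CPM (n = 8) after IC. It fell for the mean of the 3 subsets, at -0.37 ± 0.09 on the log2 scale (adjusted p = 0.0203). The call held in 13 of 17 analyses that left out 1 library and was lost without MHCII+CD11c+ control library 1 (0.0524), MHCII+CD11c- library 3 after IC (0.0721) or MHCII+CD11c+ libraries 1 (0.108) or 2 (0.0648) after IC. Without the 2 MHCII+ control libraries numbered 2 all 3 calls held, with adjusted p values of 0.0153 for Anxa6, 0.0352 for Fpr2 and 0.00893 for Ahnak.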

How the data were processed

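Bulk RNA-seq libraries from 5 ng of total RNA were made by the authors with a stranded total RNA kit. Per the study's methods and the submitters' processing notes, the authors trimmed reads with Trim Galore, mapped them to mm10 (HISAT2) and summed them over genes (featureCounts). Versions, annotation and strand setting are not given in the sources used here. The deposited values are raw counts for 22859 genes. Single-library files matched the joint table in 17 of 17 libraries, and 1 column of that table matching no sample was not used. Libraries of a group differed by more than sampling noise (chi-square per degree of freedom 6.77 to 39.2).

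Groups and replicate numbers came from the sample titles. Counts were scaled by TMM (factors 0.939 to 1.05) and filtered with filterByExpr (minimum count 10). One edgeR 4.0.16 quasi-likelihood model (R 4.3.3) of 6 group means over 17 libraries, with 11 residual degrees of freedom, gave all contrasts, with Benjamini-Hochberg adjustment over 15272 genes. Calls have an adjusted p under 0.05. Reported levels are CPM (per 1e+06 TMM-scaled counts), and ± after a log2 difference is the standard error. A floor of 3 counts marks genes too low to order. Intervals are 95%. The scripts were tested on simulated data. Alternatives used DESeq2 1.42.0, limma 3.58.1 (voom) and sva 3.50.0.

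The 10 genes, the other gene lists and the tests were chosen with earlier results of these data known. Text names all 10 genes, any gene called in the 3 related lists, the marker genes highest in CPM (and, chosen after their values were seen, Ly6c2, Ccr2, S100b and Anxa8), and the 3 genes most correlated with each of the 10.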

Additional observations from a re-analysis of the deposited data

How the results depend on the processing

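The 4 calls of S100a11 and the 0 calls for differences between IC responses held under every alternative run. None of the 7 called differences of the 10 genes changed sign. Of the 123 that were not called, 65 changed sign under at least 1 alternative, so their direction is not settled. Counts of the 10 genes called moved as follows, each with the share of all genes called under the same alternative, and with L for LYVE1+CX3CR1+, N for MHCII+CD11c- and P for MHCII+CD11c+. For L against P controls (2), voom with quality weights gave 4 (24.9%), a fit on only the groups compared 4 (17.6%) and an adjusted p under 0.01 gave 1 (9.30%), with 1 (10.5%) to 4 (15.5%) when 1 library was left out. For P against N controls (2), DESeq2 gave 4 (12.8%), no filter 1 (5.48%), the fit on only the groups compared 1 (6.44%) and the stricter threshold 1 (4.54%), with 1 (5.12% to 5.17%) to 6 (9.45%) by library. For L against P after IC (2), no filter gave 1 (7.10%), the fit on only the groups compared 5 (7.92%) and the stricter threshold 1 (6.13%), with 1 (4.47% to 11.6%) to 3 (12.1% to 12.8%) by library. For P against N after IC (1), DESeq2 (6.66%), RLE size factors (4.14%), voom (11.7%) and 4 surrogate variables (6.03%) each gave 2 and the fit on only the groups compared 3 (7.13%), with 1 to 3 (4.55%) by library. For L against N the fit on only the groups compared gave 1 (3.04%) after IC (0), and controls (0) gave 0 to 1 (2.66%) by library. The IC response of N (0) gave 0 to 1 (1.13%). Without both MHCII+ control libraries numbered 2, chosen after seeing the data, the counts were 5 (4.12%), 5 (16.6%) and 6 (9.77%) in controls (L against N, L against P, P against N), 1 (6.87%), 5 (13.4%) and 3 (5.61%) after IC, and 3 (1.75%), 2 (1.01%) and 5 (5.76%) for the IC response of N, P and the mean; the cause was not tested.

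Replicate numbers are shared between groups. Correlations of deviations from group means for same-numbered control libraries were 0.0796 to 0.286 for N with P, 0.00738 to 0.127 for L with N and 0.0172 to 0.0594 for L with P. For differently numbered control libraries they were -0.150 to 0.0511, -0.117 to 0.0672 and -0.0448 to 0.0193, in the same order. The ranges were apart for N with P and overlapped for the other pairs. Whether the numbers pair the samples is therefore not settled, and the main model holds no replicate block. With a replicate block, L against P after IC went from 2 to 1 (11.3%), where the call of Anxa2 was lost (-1.26, adjusted p = 0.0563). With a replicate block within treatment, L against P controls gave 5 (16.7%), P against N controls 4 (9.65%) and P against N after IC 3 (4.01%).

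Counts limit S100a4, with at most 26 reads in a library. Without TMM, 3 of the group means moved by more than 1 SD (S100a13 in N, Anxa1 and Anxa5 in P, all after IC).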
